A study of Mus musculus with 12 samples.

Results

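Chromatin regulator genes are described here through the RNA contacts of 3 tagged proteins, Puf60 with exon 5, Puf60 without exon 5 and Rbm38, in the mouse neuroblastoma line N2A. The genes were taken by symbol from the protein-coding genes of the mouse mm10 (GRCm38) annotation: the Kmt, Kdm, Smarc, Chd, Hdac, Arid, Setd, Dnmt, Tet, Ezh, Brd and Cbx families, with Atrx and Ankrd11. The symbols gave 108 genes of 21900. A strand could be set for 97 of them, 84 from RefSeq and 13 from the clusters themselves, and the results below concern these 97.

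Each protein was measured by iCLIP, in which ultraviolet light (150 mJ/cm2 at 254 nm) joins proteins to the RNA they touch before the protein is pulled down through its Flag tag. Per the labels, the tagged protein came from a doxycycline-inducible (1 µg/ml) transgene in a Flp-in N2A line. The groups were Puf60 with exon 5 (3 CLIP libraries, induced for 48 h, and 1 input at 24 h), Puf60 without exon 5 (3 CLIP libraries and 1 input, all at 24 h) and Rbm38 (3 CLIP libraries and 1 input, all at 24 h), 12 samples in all. The input is lysate RNA of matched size that skipped the pull-down. The CLIP library titles number the 3 libraries of a protein as BR1 to BR3, and nothing further in the labels says whether they came from separate cultures.

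The authors deposited, for each protein, one list of genomic clusters that gives a log2 fold change and its p-value before and after adjustment. A cluster is a stretch of RNA, mostly 50 nt long, and the log2 fold is read as CLIP over input. These tables give no value per library, which leaves the replicate spread and the depth unknown and allows no test across replicates. A cluster is called enriched here at an adjusted p below 0.05 in the authors' deposited table. The 95% Wilson intervals in parentheses cover counting error only, and clusters of one gene are not independent of each other.

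Chromatin regulators act on nucleosomes in several ways. Methyltransferases and demethylases write and erase histone methyl groups, deacetylases remove acetyl groups, Dnmt and Tet enzymes place and oxidise DNA methylation, SWI/SNF and CHD enzymes move nucleosomes with ATP, and bromodomain and chromodomain proteins read the marks. Many of these genes are long, with long introns, and mutations in several of them cause neurodevelopmental disorders. Puf60 is a splicing factor that binds uridine-rich tracts upstream of 3′ splice sites, while Rbm38 binds GU-rich RNA and is known for effects on mRNA stability through 3′ untranslated regions.

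The cell line's identity comes from the labels, and clusters in marker genes do not establish it. Of 13 neuroblastoma and neuron markers with a strand, 7, 6 and 9 had an enriched cluster for Puf60 with exon 5, Puf60 without exon 5 and Rbm38 (53.8%, 46.2% and 69.2%), led by Map1b in each table. Of 5 markers of other cell types with a strand, 1, 1 and 2 did (20%, 20% and 40%), with Ptprc among those for Rbm38. The shares over all protein-coding genes with a strand were 18.9%, 19% and 28.4%. Mycn, Th and Dbh had no listed cluster in any table, which these tables cannot turn into a statement about their RNA level.

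More than 50% of the chromatin regulator genes had an enriched cluster in each table. A listed cluster was found in 74 of the 97 genes, and each of the 74 had an enriched one in at least 1 table. Enriched clusters occurred in 58 genes for Puf60 with exon 5 (59.8% of 97), 55 for Puf60 without exon 5 (56.7%) and 61 for Rbm38 (62.9%). Over all 18500 protein-coding genes with a strand, the shares with at least 1 enriched cluster were 18.9%, 19% and 28.4%. The genes described here were also longer, with a median of 46845 nt against 17146 nt over all protein-coding genes. The part of length and of RNA level in the higher shares was not tested. Within the 97 genes, gene length and the number of listed clusters had a Spearman rho of 0.19, 0.12 and 0.19 across genes in the 3 tables, as a description.

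A strand taken from clusters requires clusters, so the same counts were made on genes with a RefSeq strand. Enriched clusters were then found in 48, 44 and 50 of 84 chromatin regulator genes (57.1%, 52.4% and 59.5%), against 16.5%, 16.6% and 25.3% of 17492 protein-coding genes. Among genes with any listed cluster in the table, 88.9%, 86.3% and 92.6% of the chromatin regulators had an enriched one, against 63.9%, 62% and 83.4% of all.

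By cluster rather than by gene, the shares lay near the background for Puf60 and a little below it for Rbm38, but the Puf60 values depended on crowded genes, mainly Ankrd11. In Ankrd11 15.7% of 140 listed clusters with exon 5 and 12.8% of 172 without exon 5 were enriched. Cbx7 had 30.8% and 40% of 65 in each table, the second of them above the background. Puf60 with exon 5 had 246 enriched clusters among 620 on the genes' strand (39.7%, 35.9 to 43.6), beside a background of 39.4% over protein-coding genes and 39.1% over the whole table. Puf60 without exon 5 had 230 among 662 (34.7%, 31.2 to 38.4), beside 36.4% and 36.1%. Rbm38 had 556 among 1161 (47.9%, 45.0 to 50.8), beside 52% and 50.9%. Without Ankrd11 and Cbx7, left out after seeing the data, the share was 204 of 415 (49.2%) for Puf60 with exon 5, 182 of 425 (42.8%) for Puf60 without exon 5 and 327 of 697 (46.9%) for Rbm38. The median log2 fold of the enriched clusters in the authors' deposited tables was 2.98 for Puf60 with exon 5, 3.08 for Puf60 without exon 5 and 2.06 for Rbm38, beside 2.85, 2.72 and 2.37 over all protein-coding genes. Many enriched clusters here (69.5%, 67.8% and 70.5%) share both their log2 fold and their p-value with another cluster of the same table. Some clusters not called enriched had a deposited p-value under 0.05 before adjustment. They numbered 30 of 374 for Puf60 with exon 5, 24 of 432 for Puf60 without exon 5 and 178 of 605 for Rbm38. How the authors adjusted these p-values is not given.

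A few genes carried much of the total. Ankrd11 and Cbx7 alone held 42 of the 246 enriched clusters for Puf60 with exon 5 (17.1%), 48 of 230 for Puf60 without exon 5 (20.9%) and 229 of 556 for Rbm38 (41.2%). Shares near the 3′ end and shares of overlap are therefore given below with and without these 2 genes.

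**Figure D1:**
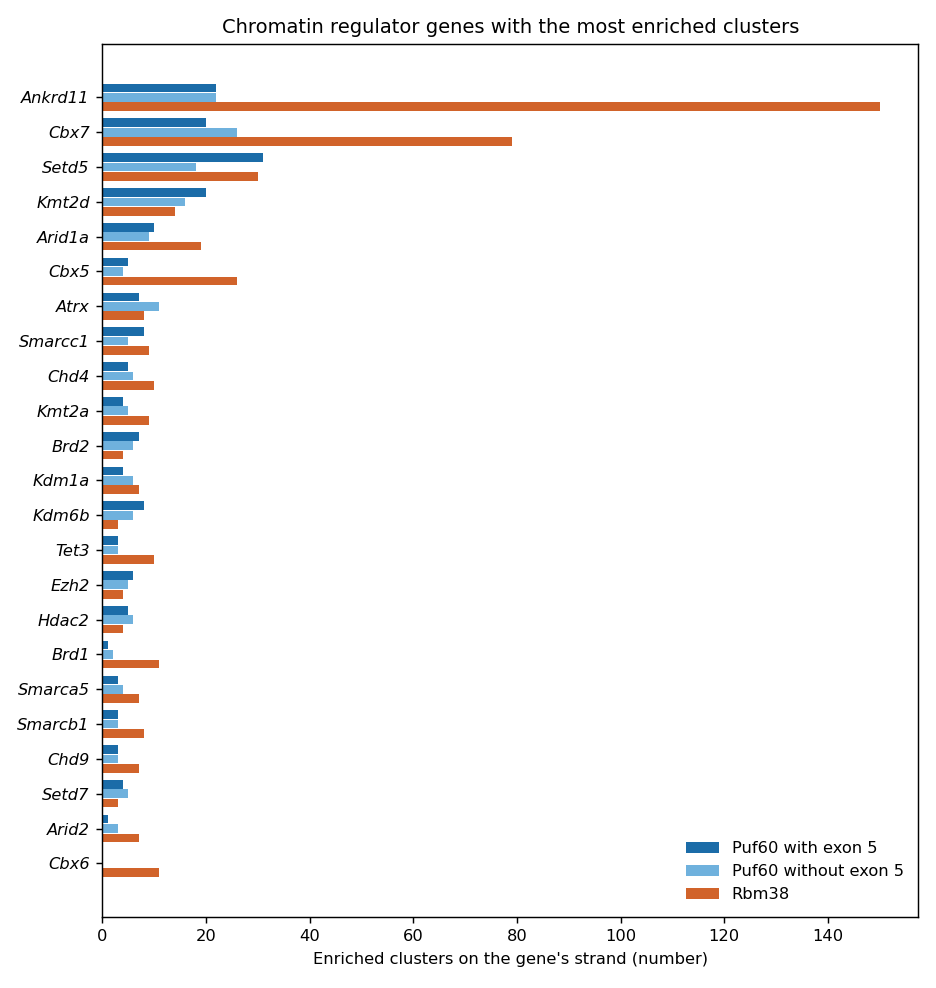
Number of enriched clusters on the gene's strand (horizontal axis) in 23 of the 24 chromatin regulator genes with the most over the 3 tables, with a bar for Puf60 with exon 5, Puf60 without exon 5 and Rbm38. Ankrd11 reaches 150 for Rbm38 and 22 for each Puf60 isoform, and Setd5 is the longest bar for Puf60 with exon 5 at 31.

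Of the 74 genes with an enriched cluster, 41 had one in all 3 tables. Both Puf60 tables, without Rbm38, covered 7 genes: Chd3, Chd5, Chd8, Hdac3, Kdm4c, Kdm5b and Setd1a. Rbm38 alone covered 9, among them Brd7, Cbx6, Kdm2b, Kdm4a, Kmt5a, Setd2, Setd4 and Tet1. For Puf60 with exon 5 alone there were 5 (Arid1b, Hdac4, Setd6, Setdb2 and Smarcc2), and for Puf60 without exon 5 alone there was 1, Hdac6. Puf60 with exon 5 and Rbm38 shared Arid4b, Brd3, Chd7, Hdac5 and Smarcd1, and Puf60 without exon 5 and Rbm38 shared Chd6, Dnmt3a, Hdac1, Kdm7a, Smarca4 and Smarce1. A gene missing from one list often had a cluster there that was not enriched: 56 genes had a listed cluster in all 3 tables, against 41 with an enriched one. Setd6, Setdb2 and Hdac6 had only 1 listed cluster each over the 3 tables. The Setdb2 cluster also lies in Gm45935, a gene on the same strand, so it cannot be assigned to either. These patterns were counted for the chromatin regulator genes only. Without the same shares over all protein-coding genes, they cannot be read as particular to these genes.

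No listed cluster was found in 23 of the 97 genes: Arid3b, Arid3c, Arid5a, Arid5b, Brd3os, Brd9, Cbx8, Chd1l, Dnmt3b, Dnmt3l, Ezh1, Hdac11, Hdac8, Kdm1b, Kdm4d, Kdm5d, Kdm6a, Kdm8, Kmt5b, Smarca1, Smarcal1, Smarcd2 and Smarcd3. The other 11 genes had no usable strand. Kdm4b and Brd8dc among them had no cluster at all, and Setd1b, Kdm5a, Arid3a, Cbx2, Arid4a, Hdac10, Brd8, Kdm3b and Kdm2a had between 1 and 7 in the tables that listed any.

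Histone methyltransferase genes held the largest number of enriched Puf60 clusters of any family. Of 147 listed clusters in these genes, 87 (59.2%) were enriched for Puf60 with exon 5, and 63 of 126 (50%) were for Puf60 without exon 5. For Rbm38 the share was lower, 83 of 260 (31.9%). By share, demethylase genes were slightly higher, at 60.7% with exon 5 and 52.8% without. Setd5, a SET domain gene mutated in intellectual disability (chromosome 6, 113077262 to 113153432, plus strand), had the most, with 31 enriched of 52 listed clusters for Puf60 with exon 5, 18 of 38 for Puf60 without exon 5 and 30 of 86 for Rbm38. Kmt2d, which encodes a histone H3 lysine 4 methyltransferase mutated in Kabuki syndrome (chromosome 15, 98831669 to 98874077, minus strand), came next with 20 of 35, 16 of 27 and 14 of 63. Ezh2, the catalytic subunit of Polycomb repressive complex 2, had 6 of 10 for Puf60 with exon 5, and Setd7, a lysine methyltransferase gene, had 4 of 6.

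Along Setd5 the enriched Puf60 clusters lay in the middle of the annotated gene. A RefSeq start lies inside this stretch, at 113104935. After it lay 28 of the 31 enriched clusters with exon 5 and 17 of the 18 without exon 5. The parts below are those of the annotated gene, not of the transcript from that start. With the gene divided into 10 equal parts from its 5′ end, 24 of the 31 enriched clusters for Puf60 with exon 5 (77.4%) and 16 of 18 for Puf60 without exon 5 (88.9%) were in parts 4 to 6, against 6 of 21 and 7 of 20 of the clusters that were not enriched. The strongest were at 113110601 to 113110650, where the authors' deposited tables give a log2 fold of 4.07 for Puf60 with exon 5, and at 113119401 to 113119500, where they give 4.77 for Puf60 without exon 5. Rbm38 had 13 of its 30 enriched clusters in parts 4 to 6 and 7 in the last part, where the Puf60 tables had 2 each.

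In Kmt2d the proteins differed in position. Puf60 with exon 5 had 17 of its 20 enriched clusters before the last of these 10 parts, and Puf60 without exon 5 had 14 of 16. Rbm38 had 11 of its 14 enriched clusters in the last part (78.6%), while 46 of its 49 other clusters lay before it. The strongest cluster was at 98856386 to 98856485 for Puf60 with exon 5 (log2 fold 4.51) and at 98856336 to 98856435 for Puf60 without exon 5 (4.15), against 98833086 to 98833135 for Rbm38 (3.03), in the authors' deposited tables. Kmt2a, another histone H3 lysine 4 methyltransferase gene, had 7 of its 9 enriched Rbm38 clusters in the last part, and 24 of 26 other Rbm38 clusters before it. Its few enriched Puf60 clusters were not set apart in this way, with 2 of 4 with exon 5 and 3 of 5 without exon 5 also in the last part.

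One Kmt2d cluster lies at a transcript start, where RefSeq promoter sequence was at hand, and its sequence is shown because it is enriched in all 3 tables and holds a long thymidine tract. The cluster, at chr15:98871186-98871235 (mm10, minus strand) for Puf60 with exon 5, begins 30 nt before a RefSeq start at 98871205 and ends 19 nt after it. The log2 folds were small by the authors' deposited tables, 0.74 for Puf60 with exon 5 (adjusted p = 0.000605), 0.76 for Puf60 without exon 5 (adjusted p = 4.71e-05) and 0.77 for Rbm38 (adjusted p = 1.85e-05). The last 2 values are for a cluster of 98871136 to 98871235, which contains the first. For contrast stand a cluster before a Setd5 start (chr6:113104751-113104800, plus strand) and one before the Cbx7 start (chr15:79932786-79932835, minus strand), listed for Rbm38 in the authors' deposited table at 0.13 and 0.86 (log2 fold) and not enriched. The Cbx7 fold is above the 0.77 of Kmt2d for Rbm38, so these clusters differ in the call and not in fold. The Kmt2d stretch shown is the cluster of Puf60 with exon 5, while the other stretches are Rbm38 clusters. The sequences are RefSeq's (GRCm38.p6), 5′ to 3′ on the transcript's strand, with runs of at least 5 T in capitals.
Kmt2d: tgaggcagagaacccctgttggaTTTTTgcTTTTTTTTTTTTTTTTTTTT
Setd5: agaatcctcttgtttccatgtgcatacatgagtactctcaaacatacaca
Cbx7: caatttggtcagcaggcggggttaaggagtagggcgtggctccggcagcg
T makes up 58% of the Kmt2d stretch, 30% of the Setd5 stretch and 18% of the Cbx7 stretch, and pyrimidines 70%, 56% and 38%. TTTTT is found on the gene's strand in 26.1% of 115 promoter windows of 300 nt from these genes and in 26.2% of 32851 windows of all genes, so its presence is common in windows of that length. GTGTG is found in 24.3% and 29.1%, and is in none of the 3 stretches shown. Among all clusters lying wholly within such a window on the gene's strand, TTTTT was found in 13 of 43 enriched Rbm38 clusters (30.2%) against 5 of 91 others (5.49%). It was found in 6 of 34 enriched clusters against 17 of 81 others for Puf60 with exon 5 (17.6% and 21%), and in 5 of 37 against 11 of 90 for Puf60 without exon 5 (13.5% and 12.2%). GTGTG was found in 8 of the 43 enriched Rbm38 clusters (18.6%) against 3 of 91 others (3.3%). For Puf60 it was found in 0 of 34 enriched clusters against 4 of 81 others with exon 5, and in 1 of 37 against 5 of 90 without exon 5. Few clusters lie at promoters, 5 of the 115 windows held one, and the sequence of clusters inside genes was not analysed here.

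Histone demethylase genes had 17 enriched of 28 listed clusters for Puf60 with exon 5, 19 of 36 for Puf60 without exon 5 and 29 of 49 for Rbm38. Kdm6b, whose product removes histone H3 lysine 27 methylation, had 8 of 12 with exon 5, the most of this family, and 6 of 10 without, the same number as Kdm1a. Kdm7a, a demethylase of histone H3 lysines 9 and 27, led for Rbm38 with 10 of 11 enriched, while it had 0 of 1 and 1 of 3 in the tables of Puf60 with and without exon 5. Kdm1a, the flavin-dependent demethylase LSD1, had 4 of 7 with exon 5, 6 of 14 without exon 5 and 7 of 12 for Rbm38.

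Histone deacetylase genes had few clusters: 12 enriched of 21 for Puf60 with exon 5, 14 of 24 for Puf60 without exon 5 and 9 of 14 for Rbm38. Hdac2, a class I deacetylase, had 5 of 10, 6 of 13 and 4 of 5. Its strongest Puf60 cluster lay at chromosome 10, 37000901 to 37000950, 963.5 nt from the 3′ end, and the authors' deposited tables give it a log2 fold of 3.997 with exon 5, against 3.89 without. Its strongest Rbm38 cluster lay 163.5 nt from the 3′ end, at 37001601 to 37001850, where the log2 fold reads 4.96 in the authors' deposited table.

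For DNA methylation the Rbm38 table stood higher in number, as over these genes as a whole, but not in share against Puf60 with exon 5. Enriched were 22 of 41 clusters for Rbm38 (53.7%), 7 of 13 for Puf60 with exon 5 (53.8%) and 7 of 16 for Puf60 without exon 5 (43.8%). The shares over protein-coding genes were 52%, 39.4% and 36.4%. Tet3, a methylcytosine dioxygenase gene, had 3 of 6, 3 of 10 and 10 of 18 in the tables of Puf60 with exon 5, Puf60 without exon 5 and Rbm38. Dnmt3a, a de novo DNA methyltransferase gene, had 6 of 7 enriched for Rbm38, 1 of 2 for Puf60 without exon 5 and no listed cluster for Puf60 with exon 5.

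Dnmt1, the gene of the maintenance DNA methyltransferase (chromosome 9, 20907206 to 20959888, minus strand), held the strongest Rbm38 cluster of all 97 genes, at 20907236 to 20907485, centred 154.5 nt from the 3′ end. Its log2 fold was 6.33 for Rbm38 in the authors' deposited table. At the overlapping clusters the authors' deposited tables gave log2 folds of -1.15 for Puf60 with exon 5 and 0.09 for Puf60 without exon 5, neither enriched. Dnmt1 also had 3 enriched clusters of 5 for Puf60 with exon 5 and 2 of 3 without, the strongest of them farther inside the gene, at 20922486 to 20922535 with exon 5 (3.22) and 20937186 to 20937235 without it (3.43), as log2 folds of the authors' deposited tables.

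Among remodelers, the SWI/SNF and Smarc genes had 30 enriched of 59 clusters for Puf60 with exon 5, 28 of 78 for Puf60 without exon 5 and 69 of 120 for Rbm38. Arid1a, a subunit that helps define the BAF form of SWI/SNF, had 10 of 23, 9 of 20 and 19 of 50. Smarcc1, a core subunit, had 8 of 9, 5 of 17 and 9 of 11. Smarcb1, a core subunit lost in rhabdoid tumours, had all of its 3 clusters enriched for Puf60 with exon 5, 3 of 5 for Puf60 without exon 5 and 8 of 9 for Rbm38. The SWI/SNF and Smarc shares were thus 50.8%, 35.9% and 57.5%, beside 39.4%, 36.4% and 52% over all protein-coding genes. CHD genes had 23 of 46 and 21 of 40 enriched for Puf60 with and without exon 5 (50% and 52.5%). For Rbm38 they had 21 of 60 (35%). The CHD shares lay above the background for both Puf60 isoforms and below it for Rbm38. Chd4, the ATPase of the NuRD complex, had 5 of 17, 6 of 15 and 10 of 34.

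Reader genes had more enriched Rbm38 clusters than Puf60 clusters, as did these genes as a whole (556 against 246 and 230). Bromodomain genes had 13 enriched of 31 for Puf60 with exon 5, 11 of 27 for Puf60 without exon 5 and 35 of 54 for Rbm38. Brd2, a BET family gene, had 7 of 10 for Puf60 with exon 5 and 4 of 7 for Rbm38, whereas Brd1, which encodes a scaffold of histone acetyltransferase complexes, had 1 of 6 and 11 of 16. Chromobox genes had 27 of 124 enriched for Puf60 with exon 5, 34 of 123 for Puf60 without exon 5 and 129 of 241 for Rbm38 (53.5%, near the background of 52%), with 79 of the 129 in Cbx7. The remaining ARID genes had 1 of 3, 0 of 3 and 1 of 5, both of the enriched ones in Arid4b, which encodes a Sin3 complex subunit.

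Cbx7, a chromodomain subunit of Polycomb repressive complex 1 (chromosome 15, 79915804 to 79971143, minus strand), had 20 enriched of 65 listed clusters for Puf60 with exon 5, 26 of 65 for Puf60 without exon 5 and 79 of 169 for Rbm38. The annotated gene extends far upstream of the start that the RefSeq promoter table gives, 79932646. Upstream of that start lay 60 of the 79 enriched Rbm38 clusters, 7 of 20 for Puf60 with exon 5 and 12 of 26 for Puf60 without exon 5. Its strongest Puf60 cluster without exon 5, at 79949286 to 79949335 in this upstream stretch, is given in the authors' deposited tables at a log2 fold of 3.92 with exon 5, 5.53 without, and 0.13, not enriched, for Rbm38.

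Cbx5, the gene of heterochromatin protein HP1 alpha (chromosome 15, 103191546 to 103239904, minus strand), had its listed clusters crowded in the last 2 of 10 parts. There lay all 26 enriched Rbm38 clusters and 39 of 39 Puf60 clusters with exon 5 that were not enriched. Of the 26 enriched Rbm38 clusters, 21 overlapped a listed Puf60 cluster with exon 5 that was not enriched, 2 overlapped an enriched one and 3 overlapped none. The strongest, at 103191586 to 103191835, is given in the authors' deposited tables at 3.38 (log2 fold) for Rbm38, against 1.10 for Puf60 with exon 5. Cbx6, another Polycomb chromobox gene, had 11 enriched of 17 for Rbm38 and none enriched of 2 and 8 for Puf60 with and without exon 5. All 11 also lie in Npcd, a gene on the same strand that contains Cbx6, so they cannot be assigned to either.

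Ankrd11, whose ankyrin repeat protein recruits histone deacetylases and is mutated in KBG syndrome (chromosome 8, 122883321 to 123042284, minus strand), had the most listed clusters in every table: 140 for Puf60 with exon 5, 172 for Puf60 without exon 5 and 295 for Rbm38. Enriched were 22 (15.7%), 22 (12.8%) and 150 (50.8%). The Puf60 shares lie under the background of 39.4% and 36.4%, and the Rbm38 share is near its background of 52%. Folds were moderate for Rbm38, with a median of 1.80 and a highest value of 3.32 over the enriched clusters in the authors' deposited table.

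Rbm38 clusters in Ankrd11 were sorted by position in a way opposite to Kmt2d. The first 3 of 10 parts of the gene held 105 of the 150 enriched clusters (70%) and 44 of the 145 others (30.3%). The last 2 parts held 10 enriched (6.67%) and 73 others (50.3%). For Puf60 without exon 5, the last 2 parts held 12 of 22 enriched clusters (54.5%) and 24 of 150 others (16%), and for Puf60 with exon 5 they held 8 of 22 (36.4%) and 27 of 118 (22.9%). Of the 22 enriched with exon 5, 9 overlapped one enriched without it and 10 an enriched one of Rbm38, while of the 22 without exon 5, 9 and 4 did so. In Kmt2d, 11 of the 20 enriched clusters with exon 5 and 12 of the 16 without exon 5 overlapped an enriched one of the other isoform.

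Atrx, an X-linked gene of a remodeler that deposits histone H3.3 (chromosome X, 105797615 to 105929372, minus strand), had Puf60 clusters in one zone. In parts 6 to 8 were 7 of 7 enriched with exon 5 and 10 of 11 enriched without exon 5, while 5 of the 8 enriched Rbm38 clusters were in the last part. All 7 enriched with exon 5 overlapped one enriched without it, and 6 of 11 did so in the other direction. The strongest, at 105831036 to 105831135, reached 5.60 (log2 fold) with exon 5 and 5.93 without it (105830986 to 105831135) by the authors' deposited tables, and no Rbm38 cluster overlapped it.

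**Figure D2:**
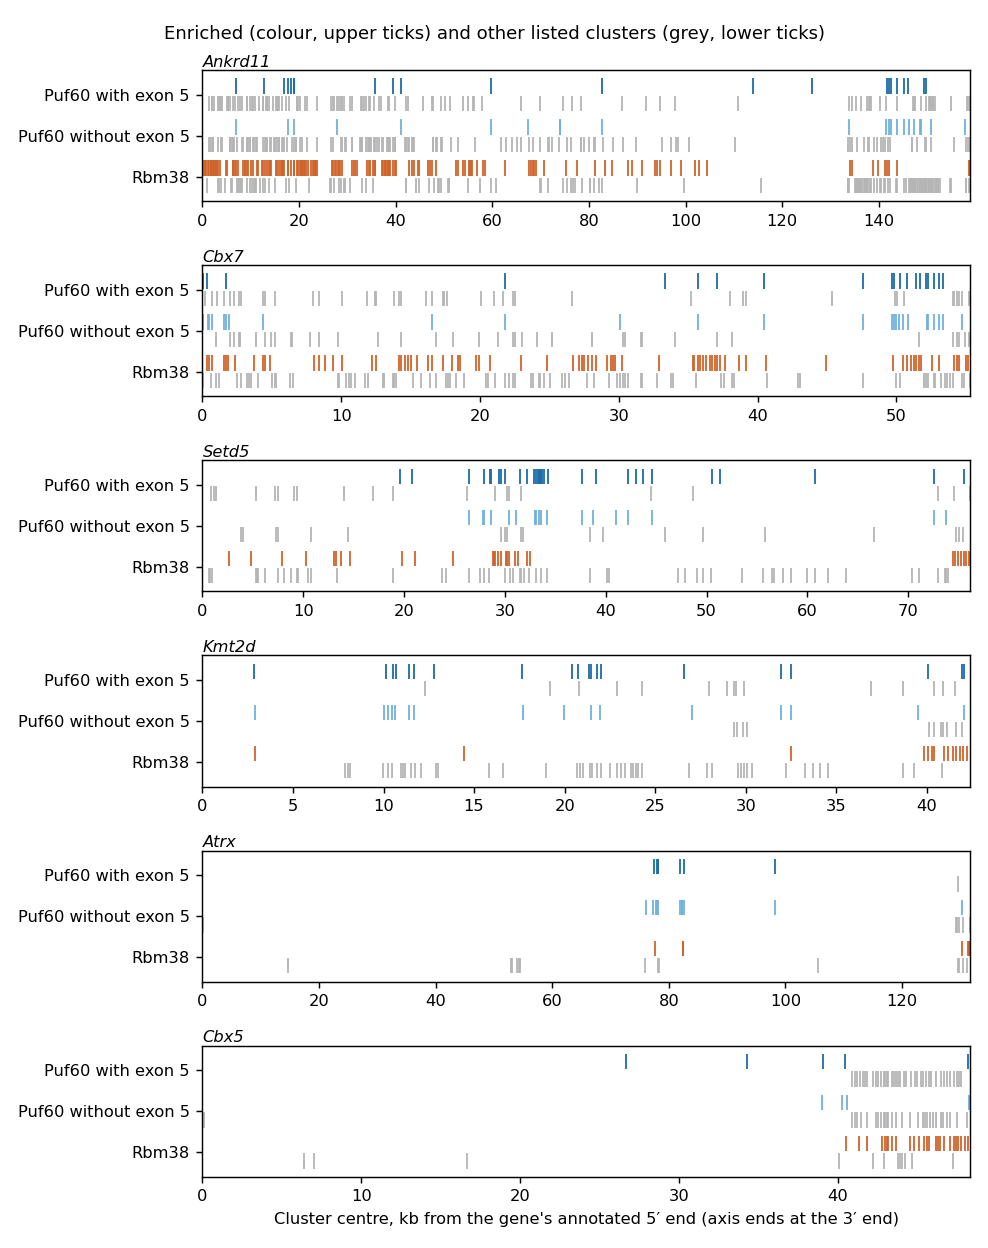
Positions of cluster centres along 6 genes, in kb from the annotated 5′ end to the 3′ end at the right edge, with a row each for Puf60 with exon 5, Puf60 without exon 5 and Rbm38. Coloured upper ticks are enriched and grey lower ticks are other listed clusters. The enriched Rbm38 ticks fill the first 3 of 10 equal parts of Ankrd11 (105 of 150) but gather in the last part of Kmt2d (11 of 14) and the last 2 parts of Cbx5 (26 of 26).

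The strongest clusters separated the proteins by position. The 10 genes with the highest Puf60 clusters, 1 cluster per gene, had none within 2000 nt of the 3′ end, with median distances of 20726.5 nt with exon 5 and 21447.5 nt without exon 5. Of the 10 highest Rbm38 clusters, 9 lay within 2000 nt, at a median of 312.5 nt. Setd7 held the highest cluster for Puf60 with exon 5, at chromosome 3, 51521136 to 51521235, for which the authors' deposited tables give a log2 fold of 6.61 with exon 5, 6.15 without and 1.14 for Rbm38 (51521186 to 51521235). Smarcb1 held the highest for Puf60 without exon 5, at chromosome 10, 75912186 to 75912335, with 6.53, against 5.60 with exon 5 (75912186 to 75912285) and 0.62 for Rbm38 in the authors' deposited tables.

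Further Puf60 clusters with exon 5 among the highest, by log2 fold in the authors' deposited tables, lay in Ezh2 (5.42 with exon 5, 5.78 without), Kdm5c, an X-linked H3 lysine 4 demethylase gene (5.17 and 5.20), Hdac7, a class IIa deacetylase gene (5.06 and 4.56), Smarcad1, a remodeler gene (5.06 and 5.56), Chd3, a NuRD ATPase gene (4.97 and 5.34), and Cbx1, the gene of HP1 beta (4.90 and 4.39). Arid1a had a cluster of 5.40 with exon 5, at chromosome 4, 133722036 to 133722135, in the authors' deposited table, and no cluster without exon 5 or for Rbm38 was listed there. Without exon 5 the highest also included Hdac9, a class IIa deacetylase gene (4.45 with exon 5, 5.22 without), and Tet2, a methylcytosine dioxygenase gene (4.64 and 5.16), in the authors' deposited tables. Of these, the Ezh2, Kdm5c, Hdac7, Smarcad1, Chd3 and Cbx1 sites had no overlapping Rbm38 cluster.

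After Dnmt1, the highest Rbm38 clusters in the authors' deposited table were in Kdm7a (5.18), Hdac2 (4.96), Kdm1a (4.89), Kmt2c, a histone H3 lysine 4 methyltransferase gene (4.85), Brd3, a BET gene (4.80), Cbx1 (4.71), Cbx3, the gene of HP1 gamma (4.69), Kdm4a, an H3 lysine 9 and 36 demethylase gene (4.63), and Cbx6 (4.57, in the stretch shared with Npcd). The Kdm1a cluster lay 77.5 nt and the Kmt2c cluster 140.5 nt from the 3′ end. At Kdm1a the overlapping clusters stood at -0.47 with exon 5 and -1.43 without, and at Cbx1 at -1.03 and -0.87, as log2 folds of the authors' deposited tables.

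Over all clusters in these genes, 157 of the 556 enriched Rbm38 clusters lay within 2000 nt of the 3′ end (28.2%, 24.7 to 32.1), against 33 of 605 others (5.45%, 3.91 to 7.56). Puf60 ran the other way, with 23 of 246 enriched clusters with exon 5 (9.35%, 6.31 to 13.6) against 66 of 374 others (17.6%, 14.1 to 21.8), and 21 of 230 without exon 5 (9.13%, 6.05 to 13.6) against 98 of 432 (22.7%, 19.0 to 26.9). Ankrd11 and Cbx7 moved these values. Without them the Rbm38 share was 45.9% of enriched and 6.22% of other clusters, near the 43.4% and 10.3% over all protein-coding genes. The Puf60 shares without them were 10.8% and 27% with exon 5, against 15.3% and 29.8% over all protein-coding genes, and 9.89% and 37% without exon 5, against 15.3% and 34.5%. Counted by gene, 48 of 61 with enriched Rbm38 clusters had one within 2000 nt of the 3′ end, compared with 14 of 58 for Puf60 with exon 5 and 16 of 55 for Puf60 without exon 5. Genes with more enriched clusters have more occasions for one near the end, and Rbm38 had 556 against 246 and 230. The count by gene was made for the chromatin regulator genes only, so it cannot be read as particular to them.

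**Figure D3:**
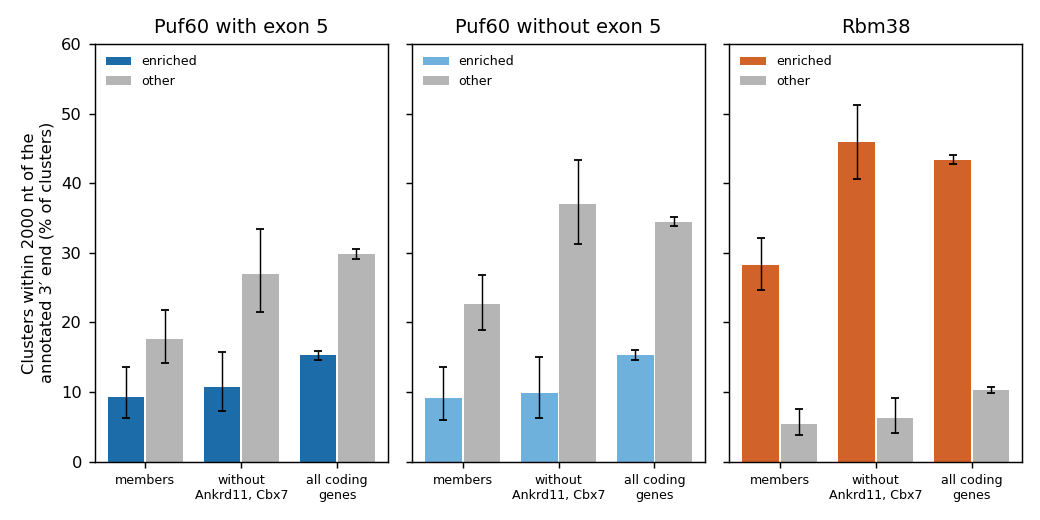
Share of clusters whose centre lies within 2000 nt of the annotated 3′ end (vertical axis, percent), for enriched (coloured) and other (grey) clusters, in all chromatin regulator genes, without Ankrd11 and Cbx7, and in all protein-coding genes; error bars are 95% Wilson intervals. The enriched bar is the higher of each pair for Rbm38 (28.2% against 5.45% in these genes) and the lower for both Puf60 isoforms.

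By family the share ranged widely, and Ankrd11 and Cbx7 lowered the Rbm38 values of their families. For Rbm38 it was 66.7% of 9 enriched clusters in deacetylase genes, 55.1% of 69 in SWI/SNF and Smarc genes, 51.4% of 35 in bromodomain genes, 44.6% of 83 in methyltransferase genes, 18.6% of 129 in chromobox genes and 4.43% of 158 in Atrx and Ankrd11. Without Cbx7 the chromobox share was 38% of 50, and without Ankrd11 Atrx alone had 62.5% of 8. For Puf60 with exon 5 it was 46.2% of 13 in bromodomain genes, where Brd2 held 5 of the 6, 33.3% of 12 in deacetylase genes and 3.45% of 87 in methyltransferase genes. No test between families was made, since clusters of one gene are not independent.

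The Puf60 isoforms were compared with each other next. With exon 5, 135 of the 246 enriched clusters met an enriched one of the other isoform (54.9%, 48.6 to 61.0), beside 62% over all protein-coding genes. In the other direction 136 of 230 did (59.1%, 52.7 to 65.3), beside 61.1%. Without Ankrd11 and Cbx7 the shares were 54.4% and 61.5%. Clusters matched by largest mutual overlap formed 271 pairs in 55 genes. Both were enriched in 133 pairs, the one with exon 5 alone in 17, the one without exon 5 alone in 11 and neither in 110. The log2 folds of the pairs had a Pearson r of 0.940 and a Spearman rho of 0.919 across clusters of the authors' deposited tables, with the median of the difference (with exon 5 minus without) at 0.12 and its SD over pairs at 0.72. Of the 161 pairs enriched in at least 1 table, 136 (84.5%) differed by at most 1 on the log2 scale, 16 were higher with exon 5 by more than 1 and 9 lower by more than 1, by the authors' deposited tables. The 14264 pairs over all protein-coding genes gave nearly the same values. Their Pearson r was 0.939, their Spearman rho 0.920 and their median difference 0.095 across clusters of the authors' deposited tables. Both were enriched in 6508, and 84% of those enriched in at least 1 table differed by at most 1.

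Of these 161 pairs, the widest differences are named here, 1 per gene and 5 in each direction. Higher with exon 5, in the authors' deposited tables, were clusters in Chd9, a CHD remodeler gene (3.74 with exon 5, 1.61 without), Smarcc1 (3.90 and 1.93), Brd2 (2.17 and 0.20), Kmt2d (2.29 and 0.50) and Cbx5 (2.20 and 0.43). Lower with exon 5 were clusters in Cbx7 (3.92 with exon 5, 5.53 without), Setd5 (0.21 and 1.74), Kdm6b (1.45 and 2.85), Setdb1, a histone H3 lysine 9 methyltransferase gene (2.74 and 4.05), and Atrx (2.98 and 4.20), in the authors' deposited tables. The paired clusters have the same extent in Chd9, Brd2, Cbx7, Setd5, Kdm6b and Atrx and differ in extent in Smarcc1, Kmt2d, Cbx5 and Setdb1. Pairs enriched in neither table spanned -1.64 to 1.47 for 95% of them in the authors' deposited tables, beside 1.78 to 2.13 for the 5 named pairs toward exon 5 and -1.61 to -1.21 for the 5 in the other direction. The named pairs were chosen as extremes, so this sets them beside the spread and tests nothing. The CLIP libraries differ in induction, 48 h with exon 5 and 24 h without, so isoform and induction time cannot be told apart.

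**Figure D4:**
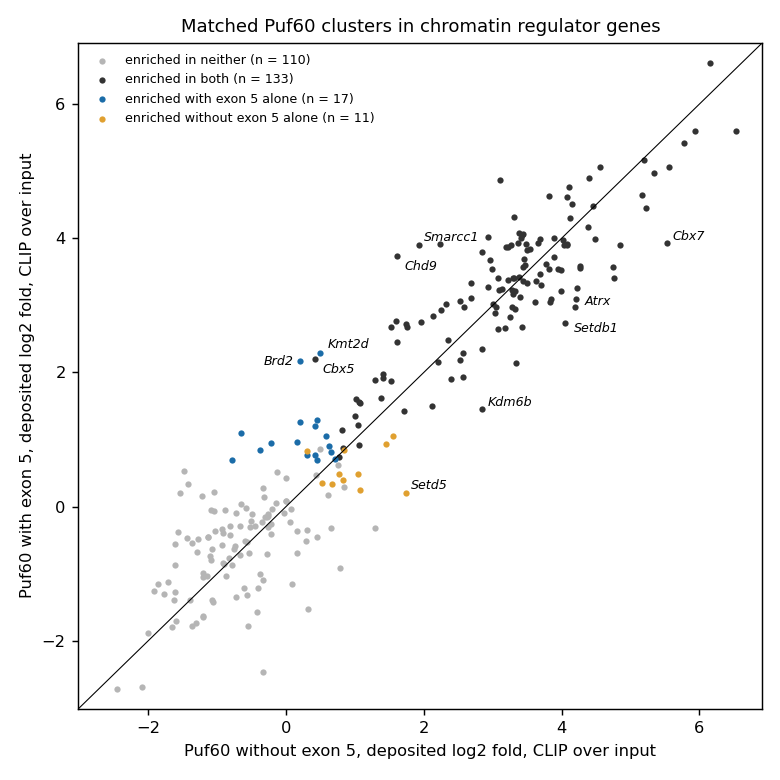
Deposited log2 fold of 271 matched clusters in chromatin regulator genes, Puf60 with exon 5 (vertical) against Puf60 without exon 5 (horizontal), coloured by the table in which the cluster is enriched; the line marks equal values and names mark the 5 widest differences each way, 1 per gene, of the 161 pairs with an enriched cluster. The points follow the line (Pearson r of 0.940), and 133 pairs are enriched in both tables.

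Rbm38 and Puf60 met at few enriched clusters. Of the 556 enriched Rbm38 clusters, 53 overlapped an enriched cluster of Puf60 with exon 5 (9.53%, 7.36 to 12.3) and 42 one of Puf60 without exon 5 (7.55%, 5.64 to 10.1), beside 10.8% and 10% over all protein-coding genes. Of the enriched Puf60 clusters, 22.4% with exon 5 and 19.1% without exon 5 overlapped an enriched Rbm38 cluster, beside 20.9% and 18.8%. Without Ankrd11 and Cbx7 these shares were 10.7% and 8.26% of Rbm38 clusters and 17.6% and 15.4% of Puf60 clusters with and without exon 5. At the 267 pairs matched between Rbm38 and Puf60 with exon 5, 53 were enriched in both, 105 for Rbm38 alone, 42 for Puf60 alone and 67 in neither. Over all protein-coding genes the same states held 1980, 3974, 1803 and 2577 of 10334 pairs. In the chromatin regulator genes, the pairs within 2000 nt of the 3′ end were 38 of the 105 for Rbm38 alone, 13 of the 53 for both and 0 of the 42 for Puf60 alone. This split by position was counted for these genes only. The Pearson r of the log2 folds in the authors' deposited tables was -0.07 across the 267 pairs, and -0.21 across 266 pairs with Puf60 without exon 5. Over all protein-coding genes it was -0.02 and -0.13.

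Individual pairs show each state in the authors' deposited tables, with the Rbm38 value first and that of Puf60 with exon 5 second. Enriched in both were clusters in Smarcc1 (3.60 and 3.90), Setd5 (3.48 and 2.64) and Arid1a (3.99 and 0.70). Enriched for Rbm38 alone were Dnmt1 (6.33 and -1.15), Hdac2 (4.96 and 0.83), Kdm1a (4.89 and -0.47), Cbx1 (4.71 and -1.03) and Cbx3 (4.69 and -0.54), all centred within 2000 nt of the 3′ end, in the authors' deposited tables. Enriched for Puf60 alone were Setd7 (-0.19 and 4.76, at chromosome 3, 51557936 to 51557985), Tet2 (-0.22 and 4.64), Hdac9 (1.02 and 4.45), Cbx7 (0.13 and 3.92) and Kmt5c, a histone H4 lysine 20 methyltransferase gene (-0.18 and 3.90), in the authors' deposited tables, and none of these lay within 2000 nt of it. The deposited p-value before adjustment was under 0.05 for Rbm38 at Hdac9 and for Puf60 with exon 5 at Hdac2. At these sites the state therefore rests on the authors' adjustment, and a lack of signal cannot be read from it.

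**Figure D5:**
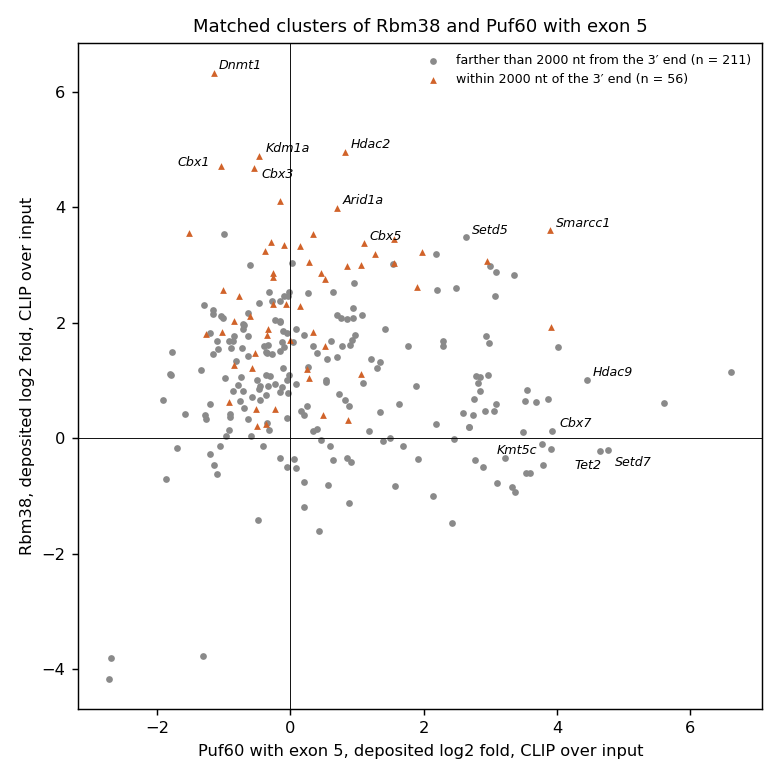
Deposited log2 fold of 267 matched clusters, Rbm38 (vertical) against Puf60 with exon 5 (horizontal); triangles lie within 2000 nt of the 3′ end and circles farther away, and the pairs quoted in the text are named. The points spread along both axes (Pearson r of -0.07), and no triangle is among the 42 pairs enriched for Puf60 alone.

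Other chromatin genes, outside the symbol families, gave similar counts. From a list of 81 such genes, all in the annotation and 72 with a strand, 44 had an enriched cluster of Puf60 with exon 5 (61.1%), 46 of Puf60 without exon 5 (63.9%) and 52 of Rbm38 (72.2%). Of their listed clusters 140 of 299 (46.8%), 149 of 380 (39.2%) and 266 of 513 (51.9%) were enriched. The most were in Srcap and Baz1b for Puf60 with and without exon 5, both remodeler genes.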

How the data were processed

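Per the file headers, the authors deposited for each protein a cluster's position, a log2 fold change and a p-value, raw and adjusted. The submitters' processing notes name TopHat, edgeR, NCBIM37 and mm10 with no version or role. The sources used here do not give how clusters were called or how replicates entered the comparison. The tables hold 0 columns of values per library, so the test on counts that was planned could not be made, and the depth per sample is unknown. The direction of the log2 fold, CLIP over input, is read from the design.

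The strand was inferred from each cluster's start, which leaves a remainder of 0 (plus) or 35 (minus) after division by 50. Of clusters in single protein-coding genes, 93.9%, 94.2% and 94.7% were then on the strand of the RefSeq promoter table. A gene without a RefSeq strand took that of its clusters where it had at least 3 and 80% shared an offset. A cluster belongs to a gene whose body (GRCm38.p6, the build of mm10) holds its centre on the gene's strand. Genes, gene lists and families were chosen with earlier results of these data known. Genes were named by fixed rules: per table the 10 genes with the most enriched clusters and the 10 highest clusters, 1 per gene; the 5 widest isoform differences each way; the 2 leading genes of each family per table; Ankrd11 and Dnmt1; and genes with no cluster. A few genes that these rules name are not reported here. Genes singled out besides these, such as Kmt2a, Kmt5c and Npcd, were chosen after their values were seen. Python 3.11.15 with pandas 2.3.3 and scipy 1.17.1 was used, and the counting was tested on simulated clusters. Alternatives covered the threshold, the gene assignment, the overlap, the distance to the 3′ end and single genes.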

Additional observations from a re-analysis of the deposited data

Results flagged for a closer look

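Enriched clusters on the strand opposite to a chromatin regulator gene with a RefSeq strand, which enter no comparison above, numbered 4 of 15 listed for Puf60 with exon 5, 3 of 9 for Puf60 without exon 5 and 14 of 18 for Rbm38. For both Puf60 isoforms they lay in Arid1b, Hdac4 and Hdac9, and with exon 5 also in Smarcal1, and none lay in another annotated gene. The highest, opposite to Hdac9 at chromosome 12, 34049101 to 34049200, is given in the authors' deposited tables at a log2 fold of 5.60 with exon 5, against 4.74 without. Opposite to Hdac4, the cluster at chromosome 1, 92195651 to 92195700, had log2 folds of 5.21 for Rbm38, 1.11 for Puf60 with exon 5 and 1.21 for Puf60 without exon 5 in the authors' deposited tables. Of the 14 for Rbm38, 7 lay in another annotated gene. Clusters on the opposite strand were counted for the chromatin regulator genes only. Without the same shares over all protein-coding genes, they cannot be read as particular to these genes. A wrong strand in the grid reading was not tested at single clusters.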

How the results depend on the processing

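Over all these genes together, the counts of enriched clusters changed by less than 1.5 times under a threshold of 0.01, a minimum log2 fold of 1, the strand ignored, any overlap with the gene, or clusters shared with another gene left out. By Benjamini-Hochberg from the deposited p-value they were 266, 246 and 721 for Puf60 with exon 5, Puf60 without exon 5 and Rbm38. With at least 2 enriched clusters required, 33 and 36 genes remained for Puf60 with and without exon 5. Without Ankrd11 and Cbx7, 49.2% and 42.8% of Puf60 clusters with and without exon 5 were enriched (chosen after seeing the data). The share near the 3′ end for Rbm38 was 21.2% within 1000 nt and 38.1% within 5000 nt, 49.2% with genes weighted equally, 38.2% without Ankrd11 and 45.9% without Ankrd11 and Cbx7. For Puf60 it was 20.3% with exon 5 and 20.9% without exon 5 within 5000 nt, and 3.48% without exon 5 within 1000 nt. Counting listed instead of enriched clusters, 45.3% with exon 5 overlapped one without, 41.7% the reverse, 45.6% and 42% overlapped Rbm38, and 23.3% and 23.6% of Rbm38 clusters overlapped Puf60 with and without exon 5. Requiring 50% of both clusters, 13.5% of clusters without exon 5 overlapped Rbm38 and 5.58% the reverse. Among single genes, Ankrd11 with exon 5 had 14 at a log2 fold of at least 1, Cbx7 had 139 for Rbm38 by Benjamini-Hochberg, and Cbx6 had 0 for Rbm38, against 11, with clusters shared with another gene left out. The cause of these shifts was not tested beyond what each setting removes. No paired analysis was possible because the tables hold no values per library, and leaving out replicates was not run for the same reason.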
